A study of Mus musculus with 2 samples.

Results

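Interferon response and signalling genes were followed in mouse primary chondrocytes on 2 arrays of a single colour, the first from cells before mechanical loading and the second from cells 24 h after it. The group holds 37 genes, out of 20660 genes that could be named on the arrays. It was drawn up by name, as a list of interferon-stimulated genes together with the receptors, kinases, transcription factors and RNA sensors of the pathway. The chondrocytes came from C57BL/6J mice aged 6 days and had spent 48 h in silicon chambers coated with fibronectin. Cyclic tensile strain of 10% elongation was then applied at 0.5 Hz for 30 min. Cells of the first array were taken before this loading, and cells of the second array 24 h after it. The number of animals behind each culture is not given in the sources used here. An array of cells kept for the same 24 h without loading was not analysed here, and the effect of loading and that of longer culture cannot be told apart. Each time point has 1 array, which leaves no replicate error, so that the values are described without a test.

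Type I interferons are secreted proteins that bind a receptor of the chains IFNAR1 and IFNAR2. The kinases JAK1 and TYK2 then phosphorylate STAT proteins, and a complex that holds STAT2 and IRF9 binds the interferon-stimulated response element in the promoters of a large set of antiviral genes. RNA sensors such as MDA5 start the production of interferon through IRF3 and IRF7. Many parts of the pathway, among them Irf7, Irf9, Stat2 and Ifih1, are themselves induced by interferon. Cells of connective tissue carry the receptor and keep a low basal expression of such genes.

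The genes were divided by role into 12 sensor and signalling genes and 25 interferon-induced genes. Probes were matched for 35 of the 37 genes, and Mx1 and Mx2, which the RefSeq annotation of this strain's genome lists as transcribed pseudogenes, had no matched probe. The brightest probe of a gene stands for it. A gene is called detected when this probe was well above background on both arrays by the scanner software's flag, which was the case for 32 members. Values below are the intensity of the probe on each array, and the log2 ratio of 24 h after to before loading after each array was divided by its 75th percentile (466 on both). The error given with a log2 ratio joins in quadrature the errors that the software gives for the spots compared and covers within-array error only. On the 10 spots that carry the Ifitm3 probe, the log2 ratio ranged from 0.37 to 0.57 with an SD of 0.07 between spots, against a software error of 0.20 for that gene.

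Promoter sequences were searched for the response element. A search of the RefSeq promoter windows of build GRCm38.p6, which hold 250 bases before and 50 bases after a transcript start, looked on both strands for GAAA followed, after any 2 bases, by GAAA. A promoter window was at hand for 30 members. The letters occurred in 14 of these, namely in 11 of 19 induced genes and in 3 of 11 sensor and signalling genes, against 3.99% of all 27025 genes with a window. The 160 bases before the start are printed for the members that were more than 2-fold higher 24 h after loading and have a window (Isg15, Gbp3, Ifit1 and Oasl2), for Bst2, which followed next, and for Ifit3, a gene of the same family as Ifit1 with a smaller log2 ratio. They lie at chr4:156200819-156200978 on the reverse strand (Isg15), chr3:142559884-142560043 on the forward strand (Gbp3), chr19:34640729-34640888 on the forward strand (Ifit1), chr5:114896774-114896933 on the forward strand (Oasl2), chr8:71537473-71537632 on the reverse strand (Bst2) and chr19:34583369-34583528 on the forward strand (Ifit3). Each is written 5′ to 3′ in the direction of the gene, with matches to the letters on either strand in capitals, and overlapping matches run together.
Isg15: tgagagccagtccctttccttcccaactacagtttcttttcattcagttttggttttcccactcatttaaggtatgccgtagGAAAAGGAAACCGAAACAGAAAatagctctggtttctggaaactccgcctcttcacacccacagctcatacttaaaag
Gbp3: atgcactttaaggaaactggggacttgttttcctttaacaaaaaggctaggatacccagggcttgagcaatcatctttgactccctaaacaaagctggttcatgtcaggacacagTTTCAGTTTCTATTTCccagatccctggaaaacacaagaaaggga
Ifit1: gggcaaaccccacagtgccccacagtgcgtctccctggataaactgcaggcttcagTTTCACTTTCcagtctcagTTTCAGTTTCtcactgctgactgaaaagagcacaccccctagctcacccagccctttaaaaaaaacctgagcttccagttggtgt
Oasl2: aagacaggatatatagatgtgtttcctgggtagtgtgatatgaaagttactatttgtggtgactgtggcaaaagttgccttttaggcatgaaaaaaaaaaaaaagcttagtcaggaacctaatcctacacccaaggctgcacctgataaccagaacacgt
Bst2: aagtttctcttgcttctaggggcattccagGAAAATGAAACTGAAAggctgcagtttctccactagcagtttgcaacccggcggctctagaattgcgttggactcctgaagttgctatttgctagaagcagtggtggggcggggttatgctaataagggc
Ifit3: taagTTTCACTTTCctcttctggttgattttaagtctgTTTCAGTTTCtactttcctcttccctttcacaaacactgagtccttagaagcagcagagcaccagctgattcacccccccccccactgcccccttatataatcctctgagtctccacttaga

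The window of Isg15 held 3 overlapping matches between bases -78 and -57 from the start, and those of Gbp3 and Bst2 held 2 overlapping matches each. Ifit1 and Ifit3 held 2 separate matches each, all on the opposite strand. Oasl2 had no match in its window, and neither had the second window of Gbp3. A stricter form of the element, in which the first of these 2 bases is C and which is contained in the first form, occurred in 7 of the induced genes and in 2 of the sensor and signalling genes, Stat2 and Ifih1, against 0.792% of all genes. The letters of a gamma-activated site, TTCNNNGAA, occurred in 9 of the 30 members against 9.55% of all genes, and in Bst2 and Ifitm3 this match overlapped one of the response element. Matches are a description of these windows and not of binding.

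**Figure D1:**
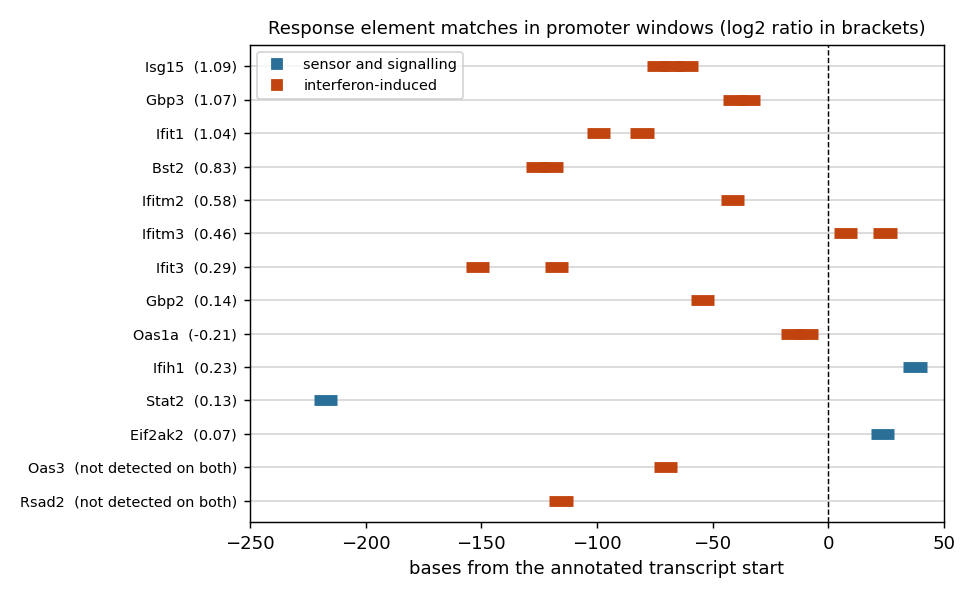
Positions of matches to the interferon-stimulated response element in the promoter windows of 14 members, in bases from the annotated transcript start (dashed line). Red bars are induced genes and blue bars are sensor and signalling genes, and the log2 ratio of each detected gene is given in brackets. Most matches in induced genes lie within the 160 bases before the start.

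Interferon-induced genes were higher 24 h after loading in 18 of the 20 detected cases, and the sensor and signalling genes differed less between the arrays. The median log2 ratio was 0.60 over the induced genes, 0.18 over the 12 sensor and signalling genes and -0.01 over all 14231 detected genes. Isg15, Gbp3, Ifit1, Oasl2 and Rtp4 were more than 2-fold higher, and 0 members were more than 2-fold lower. Among all detected genes these shares were 0.668% higher and 1.83% lower. A total of 14 members (12 induced and 2 sensor and signalling genes) were higher by more than 2 within-array errors and 1 was lower, while 7.24% of all detected genes were higher by this measure and 9.12% were lower. All 12 sensor and signalling genes had a log2 ratio above 0, as did 47.6% of all detected genes. None of the 5 genes passed 2-fold by more than 2 within-array errors, and with another background correction (normexp) only Isg15 of all members stayed past 2-fold.

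**Figure D2:**
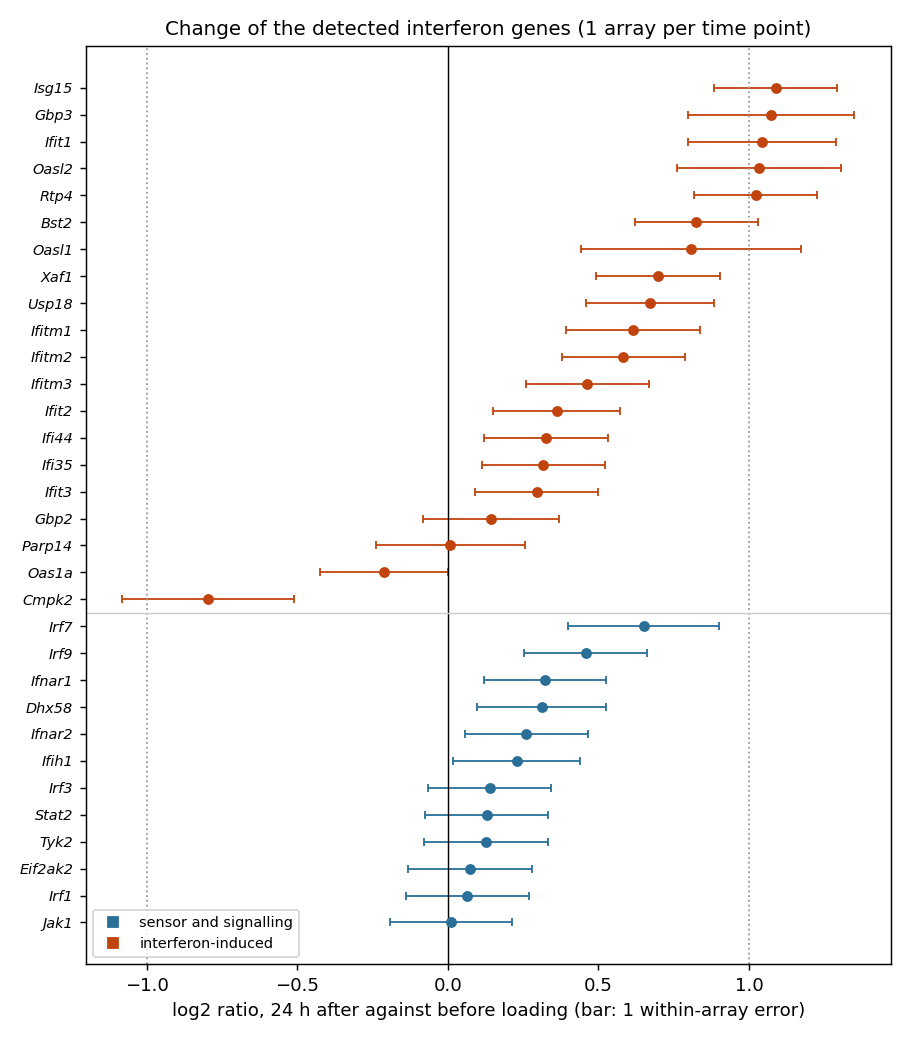
Log2 ratio of 24 h after to before loading for the 32 detected members, with bars of 1 within-array error and dotted lines at 2-fold. Induced genes (red) range from -0.80 to 1.09, while sensor and signalling genes (blue) range from 0.01 to 0.65.

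Among the receptor chains, Ifnar1 had an intensity of 1583 before loading against 1978 at 24 h, a log2 ratio of 0.32 (error 0.20). The intensity of Ifnar2 was 2081 before loading and 2492 at 24 h, a log2 ratio of 0.26. Neither chain differed by more than 2 within-array errors. The direction of Ifnar1 depended on the probe, since its 2 dimmer probes gave log2 ratios of -0.21 and 0.14, and 4 spots around the brightest one within 100 µm were more than 2-fold lower. The kinase genes Jak1 and Tyk2, whose products are bound to the receptor chains, lay close to 0. Jak1 changed from an intensity of 3363 to 3386 and Tyk2 from 380 to 415. Their log2 ratios of 0.01 and 0.13 were smaller than the within-array error.

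Of the 5 transcription factors, 2 were higher by more than 2 within-array errors, against 7.24% of all detected genes. Irf3, a factor that is present before stimulation and is activated by phosphorylation, had an intensity of 6082 before loading against 6690 at 24 h, a log2 ratio of 0.14. Stat2 had 867 and 947, a log2 ratio of 0.13, and Irf1, which also responds to interferon gamma, had 1446 and 1511, a log2 ratio of 0.06. These 3 genes stayed within 1 within-array error of 0. Irf9, the DNA-binding partner of STAT2, was higher at 24 h with 2315 against 1687, a log2 ratio of 0.46 (error 0.20). Irf7, which amplifies interferon production, had a dim probe with 43.7 before loading and 68.6 at 24 h, a log2 ratio of 0.65 (error 0.25). These were Irf7 and Irf9. With normexp correction Irf7 came to 0.20, while Irf9 stayed between 0.42 and 0.55 under all settings run.

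All 3 RNA sensors were below the 75th percentile on both arrays. Ifih1, which encodes the RNA sensor MDA5, had an intensity of 127 before loading against 149 at 24 h, a log2 ratio of 0.23, and 4 spots around it were more than 2-fold lower. Dhx58, which encodes the related helicase LGP2, had 107 and 133, a log2 ratio of 0.31. Eif2ak2, the gene of the RNA-activated kinase PKR, had 425 and 447, a log2 ratio of 0.07. None of the 3 differed between the arrays by more than 2 within-array errors. Taking the 7 sensor and signalling genes that are also interferon-induced alone, the median was 0.23, and that of the other 5 (both receptor chains, both kinases and Irf3) was 0.14.

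Isg15, which encodes a ubiquitin-like protein that is joined to other proteins, had the highest log2 ratio of the detected members. Its brightest probe had an intensity of 911 before loading against 1936 at 24 h, a log2 ratio of 1.09 (error 0.20) or 2.13-fold. A second, dim probe of Isg15 had 51.4 and 109, a log2 ratio of 1.08 (error 0.23), so that both probes gave nearly the same ratio. Over all settings the log2 ratio of Isg15 lay between 1.01 and 1.19. Usp18, which encodes the protease that removes ISG15 and also restrains signalling at IFNAR2, had 136 before loading and 216 at 24 h, a log2 ratio of 0.67 (error 0.21).

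The IFIT genes encode antiviral proteins, some of which bind foreign RNA, and lie in one cluster. Ifit1 had an intensity of 43.4 before loading against 89.4 at 24 h, a log2 ratio of 1.04 (error 0.25). Ifit2 had 129 and 166, a log2 ratio of 0.36 (error 0.21), and Ifit3 had 439 and 539, a log2 ratio of 0.29 (error 0.20). All 3 thus had a log2 ratio above 0, as did 47.6% of all detected genes. Only Ifit1 exceeded 2 within-array errors, and 7.24% of all detected genes were higher by this measure. Under normexp correction the log2 ratio of Ifit1 was 0.53. The files used here hold no probe sequences, and signal shared with near-identical copies, such as Ifit3b for Ifit3 or Oas1g for Oas1a, cannot be told apart.

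The oligoadenylate synthetase (OAS) genes, many of whose products make the messenger that switches on RNase L, did not all give a clear direction. The OAS-like genes Oasl1 and Oasl2 were higher at 24 h. The intensity of Oasl2 was 31.2 before loading and 63.8 at 24 h, a log2 ratio of 1.03 (error 0.27), and that of Oasl1 was 19.3 and 33.7, a log2 ratio of 0.81 (error 0.36). Both came to lower values with normexp correction, to 0.41 for Oasl2 and 0.27 for Oasl1. Oas1a had 198 before loading and 171 at 24 h on its brighter probe, a log2 ratio of -0.21 (error 0.21), but 44.0 and 54.7 on the other, a log2 ratio of 0.32 (error 0.27). The direction of Oas1a therefore depended on the probe. Oas2 was not well above background before loading, with an intensity of 14.4, and was well above it at 24 h with 34.1. Set against the lowest intensity that was well above background on the first array, 17.3, the 24 h value of Oas2 was 1.97-fold higher. This is not a firm lower limit, since several brighter probes, such as that of Slfn1 with 21.0, also failed the flag before loading. Oas3 was well above background on neither array.

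Genes of membrane-bound restriction factors were higher at 24 h in all 4 cases. Each was higher by more than 2 within-array errors, as were 7.24% of all detected genes. The IFITM proteins hinder the fusion of enveloped viruses with the cell. Ifitm2 had an intensity of 5855 before loading against 8759 at 24 h, a log2 ratio of 0.58 (error 0.20). Ifitm3 had 1880 and 2589, a log2 ratio of 0.46 (error 0.20). Its 10 spots ranged from 1769 to 1968 before loading and from 2451 to 2671 at 24 h. These spots repeat 1 probe on 1 array per time point, so their range is not a spread between cultures. Around 1 of the 10 spots, 6 spots within 100 µm were more than 2-fold higher. Ifitm1 had 73.0 and 112, a log2 ratio of 0.62 (error 0.22). Bst2, the gene of tetherin, which holds budding virus particles on the cell surface, had 1244 before loading and 2202 at 24 h, a log2 ratio of 0.83 (error 0.20). Ifitm2, Ifitm3 and Bst2 were brighter than the 75th percentile on both arrays, and their log2 ratios lay between 0.46 and 0.92 under all settings run.

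Of the guanylate-binding proteins, GTPases that act on intracellular pathogens, Gbp3 had an intensity of 37.9 before loading against 79.7 at 24 h, a log2 ratio of 1.07 (error 0.28). Gbp2 had 89.2 and 98.4, a log2 ratio of 0.14, which was smaller than its error of 0.22. The probe of Gbp3 was dim and its log2 ratio came to 0.46 with normexp correction. Rtp4, which encodes a chaperone of membrane receptors, had an intensity of 472 before loading against 958 at 24 h, a log2 ratio of 1.02 (error 0.20). The normexp value of Rtp4 was 0.95, just inside 2-fold. Xaf1, a gene linked to apoptosis, had 193 and 313, a log2 ratio of 0.70 (error 0.21).

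A smaller difference was measured for Ifi44 and Ifi35. The intensity of Ifi44 was 452 before loading and 566 at 24 h, a log2 ratio of 0.33 (error 0.20). Ifi35 had 686 and 853, a log2 ratio of 0.32 (error 0.20). Parp14, which encodes an ADP-ribosyltransferase, had 63.2 on the first array and 63.5 on the second, a log2 ratio of 0.01 (error 0.25).

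Cmpk2, which encodes a mitochondrial nucleotide kinase, was the only member lower at 24 h by more than 2 within-array errors. Its intensity was 59.6 before loading and 34.3 at 24 h, a log2 ratio of -0.80 (error 0.28), and its second probe had 47.0 and 30.3, a log2 ratio of -0.63 (error 0.34). Both probes of Cmpk2 therefore gave lower values at 24 h, and the direction was kept under all settings run, with -0.30 after normexp correction. Rsad2, the gene of viperin, lies beside Cmpk2 and is transcribed in the opposite direction. It was well above background before loading with an intensity of 23.5 and was not at 24 h with 15.8. Set against the lowest intensity well above background on the second array, 17.8, the value of Rsad2 before loading was 1.32-fold higher. Here too this is not a firm limit, since a brighter probe, that of Ccr9 with 19.7, failed the flag at 24 h. The log2 ratio of Rsad2 was -0.57 with an error of 0.53, so that it did not differ by more than 2 within-array errors. Both neighbouring genes thus had lower values at 24 h, unlike most of the induced genes. Only Cmpk2 exceeded 2 within-array errors.

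**Figure D3:**
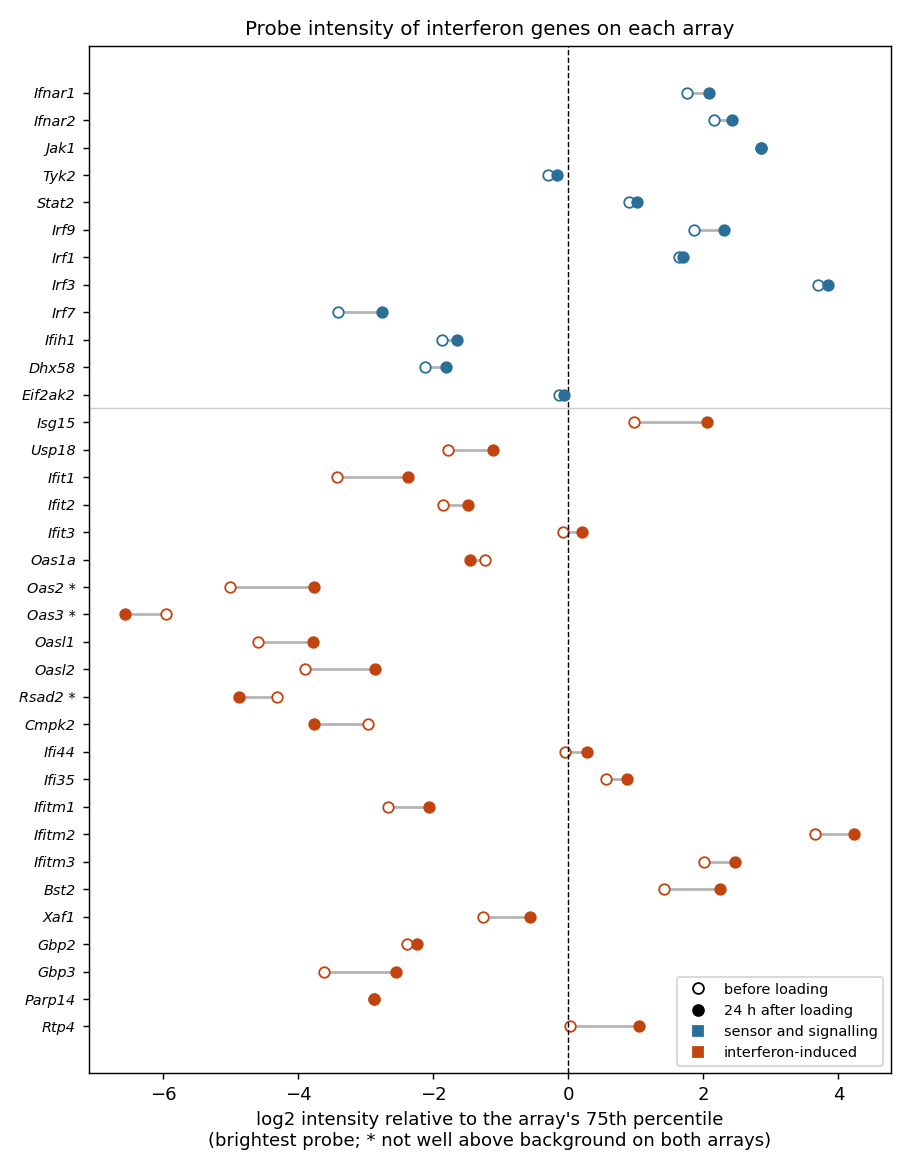
Log2 intensity of the brightest probe of 35 members relative to the array's own 75th percentile (dashed line), before loading (open circles) and 24 h after (filled circles). Sensor and signalling genes are blue, induced genes are red, and Oas2, Oas3 and Rsad2 were not well above background on both arrays. Brightness depends on the probe, so positions of different genes do not order their transcript levels.

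By level, the roles differed in how many probes were bright. Of the 12 sensor and signalling genes, 7 were above the 75th percentile on both arrays and 5 below it. Of the 20 detected induced genes, 6 were above it on both arrays (Isg15, Rtp4, Bst2, Ifi35, Ifitm2 and Ifitm3) and 12 below it, while Ifit3 and Ifi44 went from below to above it. Over all detected genes, 58.7% were above it on both arrays. The higher log2 ratios of induced genes were seen in both ranges. Above the 75th percentile the median log2 ratio was 0.70 over the 6 induced genes and 0.14 over the 7 sensor and signalling genes, against -0.0038 over all genes in that range. Below it the medians were 0.64 over the 12 induced genes and 0.23 over the 5 sensor and signalling genes, against -0.04 over all genes. In the brighter range all 13 members had a log2 ratio above 0, against 49.3% of all genes in that range. There, 2 of the 6 induced genes, Isg15 and Rtp4, were more than 2-fold higher (0.275% of all genes) and 0 members more than 2-fold lower (0.646%). By more than 2 within-array errors, 5 of the 6 induced genes and Irf9 were higher, against 5.33% of all genes, and 0 members were lower, against 5.98%. In the dimmer range 10 of 12 induced genes and all 5 sensor and signalling genes had a log2 ratio above 0, against 44.8% of all genes. Here, 3 of the 12 induced genes (Ifit1, Gbp3 and Oasl2) were more than 2-fold higher (1.12% of all genes) and 0 members more than 2-fold lower (2.99%). By more than 2 within-array errors, 7 induced genes and Irf7 were higher, against 8.95% of all genes, and Cmpk2 alone was lower, against 12.4%.

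**Figure D4:**
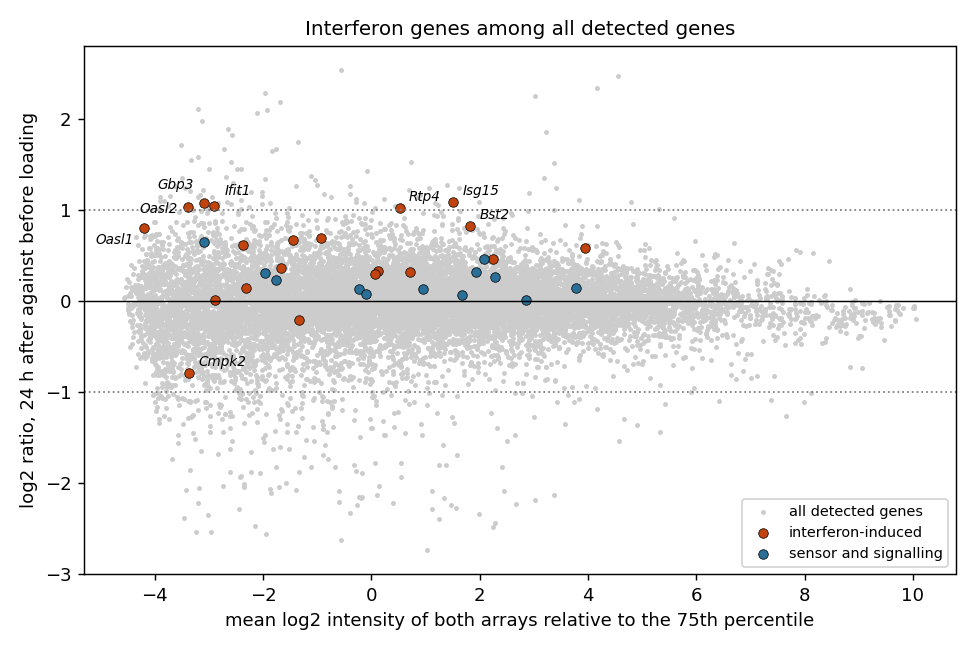
Log2 ratio of 24 h after to before loading against the mean log2 intensity relative to the 75th percentile, for all 14231 detected genes (grey), induced members (red) and sensor and signalling members (blue). Dotted lines mark 2-fold. Induced members lie mostly above 0 at every brightness, and Cmpk2 is the lowest of them.

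Log2 ratios of the detected induced genes were also set beside the letters found in their promoter windows. The median was 0.58 over the 9 genes with the looser form of the response element and 0.49 over the 8 without it. With the stricter form it was 0.83 over 7 genes and 0.47 over the 10 without it. For the letters of the gamma-activated site it was 0.36 over the 5 genes with them and 0.66 over the 12 without them. These medians rest on few genes and were not tested. Genes with the looser form ranged from Isg15 to Oas1a, and Oasl2, with no such match, was among the genes past 2-fold. Over all detected genes with a window, the median was 0.0017 for the 398 with the looser form and -0.01 for the 10922 without it. For the stricter form it was 0.047 for 95 genes with it and -0.015 for 11225 without it. For the gamma-activated site it was 0.0064 for 954 genes with it and -0.016 for 10366 without it.

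Other genes of the pathway were examined through lists written from general knowledge of it. Of 17 interferon genes, 8 of the 13 with a probe were detected, all below the 75th percentile. These were 7 interferon alpha genes, which are near-identical copies and may share signal, and Ifnl3, an interferon lambda gene. Their log2 ratios ranged from -0.57 (Ifna11) to 0.44 (Ifna1), with a median of 0.04, and Ifna1 alone was higher by more than 2 within-array errors (7.24% of all detected genes were). Interferon beta (Ifnb1) and interferon gamma (Ifng) were well above background on neither array. Of 21 further receptors, kinases and regulators, 19 were detected with a median of 0.0062, between Irf5 (-0.47) and Irf8 (0.81), both dim. Of these 19, only Irf8 was higher by more than 2 within-array errors, and 0 were lower, against 7.24% and 9.12% of all detected genes. Of 22 further genes of nucleic acid sensing, 19 were detected with a median of 0.11, between Adar (-0.13) and Sting1 (0.40). By more than 2 within-array errors 0 were higher and 0 lower, against the same 7.24% and 9.12%.

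A wider list of 84 further interferon-induced genes differed less between the arrays than the 25 above. Of its 67 detected genes, 47 had a log2 ratio above 0 (47.6% of all detected genes had one) and the median was 0.12. A total of 18 were higher by more than 2 within-array errors, against 7.24% of all detected genes. Another 6 were lower, a share close to the 9.12% of all detected genes. Lgals3bp, the gene of a secreted galectin-binding glycoprotein, was the only one past 2-fold, at the limit of it. Among all detected genes 0.668% were more than 2-fold higher. The intensity of Lgals3bp was 3424 before loading against 6851 at 24 h, a log2 ratio of 1.00 (error 0.20). Gch1, which encodes the first enzyme of tetrahydrobiopterin synthesis, was the lowest with 874 and 458, a log2 ratio of -0.93 (error 0.20). More genes of this list were higher than lower, but not all moved in one direction. As an example, 2 neighbouring genes of the immunoproteasome, chosen after their values were seen, went opposite ways. Psmb8 had 31.5 before loading and 56.2 at 24 h, a log2 ratio of 0.84 (error 0.29), and Psmb9 had 230 and 125, a log2 ratio of -0.88 (error 0.21).

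Markers of the labelled cell type and of other cells were set beside these values. Among all detected genes, 7.24% were higher and 9.12% lower by more than 2 within-array errors. A log2 ratio above 0 was found in 47.6% of them, and 0.668% were more than 2-fold higher. All 12 chondrocyte markers were detected, among them Col2a1 with 499543 before loading and 474876 at 24 h, Acan with 71350 and 89998 and Sox9 with 9965 and 11610. Of the 12, 9 had a log2 ratio above 0 and the median was 0.12, and by more than 2 within-array errors Matn1 was higher (0.56) and Col11a1 lower (-0.82), both named after their values were seen. Of 14 leukocyte markers, 11 were detected and 5 of these had a log2 ratio above 0, and their summed intensity was 30632 before loading and 29670 at 24 h. Most of this sum came from the probe of Itgam (25496 and 24759), which could not be checked without its sequence. The sum therefore does not describe the other leukocyte markers. By more than 2 within-array errors, Ptprc and Lyz2 (0.46) were higher and Laptm5 (-0.42) was lower, and Itgam, Lyz2 and Laptm5 are named after their values were seen. Ptprc, the gene of CD45, was the only one past 2-fold, at a dim probe with 20.9 and 46.1 and a log2 ratio of 1.14 (error 0.35). Csf1r had 3646 and 3288, no probe was matched for Cd68, and Aif1 and Spi1 were well above background on neither array. Of 6 markers of plasmacytoid dendritic cells, which are strong producers of interferon, 4 were detected with a median of 0.39. Irf8 (0.81) and the member Bst2 (0.83) were higher by more than 2 within-array errors, and Tcf4 (-0.05) and Siglech (-0.04) were not. Irf8 is also in the list of regulators above. The median of 0.39 is therefore not separate from the interferon genes and does not describe this cell type. Siglech had 118629 and 115534, a very bright signal, and whether its probe measures Siglech could not be checked without the probe's sequence, while Ccr9 and Ly6d were well above background on neither array. Endothelial markers (3 of 6 detected, median -0.05) and fibroblast markers (6 of 6 detected, median 0.07) had 0 genes past 2-fold. Of the former, Pecam1 had a log2 ratio of 0.23 and Kdr of -0.05, while Cdh5 was not detected, and of the latter, Col1a1, Col1a2 and Col3a1 were all detected. A part of other cells in the higher interferon-induced genes was not tested, and in cultures measured as a whole a change in the number of such cells and a change in RNA per cell cannot be told apart.

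Processing changed the size of these differences more than their direction. The median log2 ratio of the induced genes was lowest with normexp correction, at 0.40, and highest with arrays scaled by their medians, at 0.70, where the median over all genes was 0.08. The difference between the medians of induced and of sensor and signalling genes was 0.42, and it ranged from 0.23 with normexp correction to 0.47 without locally disturbed areas of the array.

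**Figure D5:**
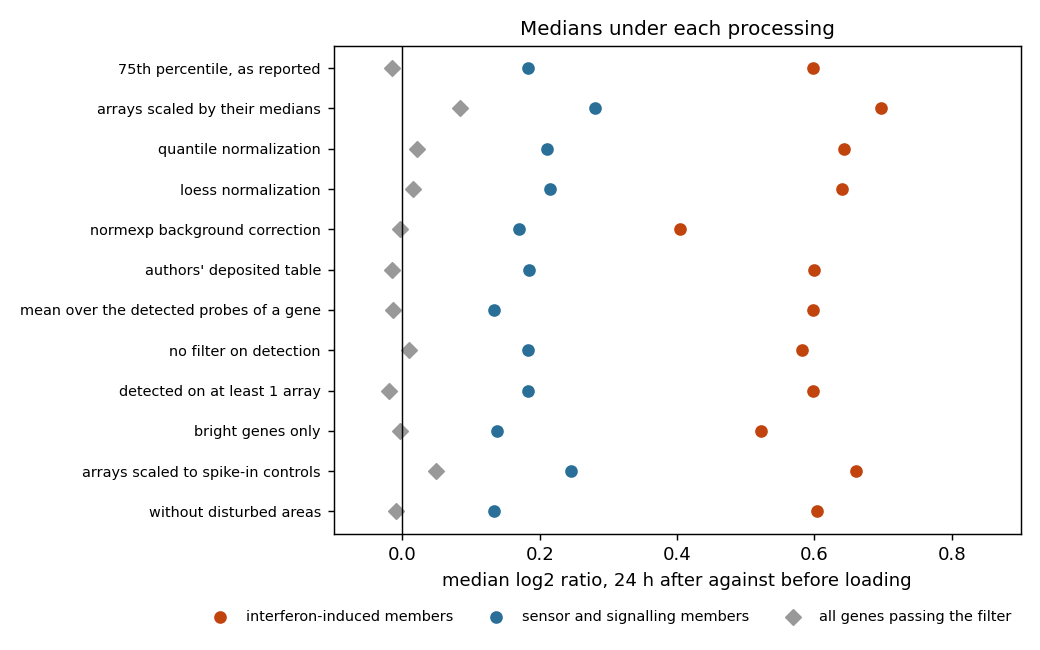
Median log2 ratio of induced members (red), sensor and signalling members (blue) and all genes that pass the same filter (grey diamonds) under the reported and 11 other settings. In each setting the red point lies above the blue one and the blue one above the grey one.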

How the data were processed

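Unstrained mouse chondrocytes and cells 24 h after strain gave 1 array each, both on 1 slide. Per the file headers, the deposited intensity of a spot is the processed signal of Agilent Feature Extraction 10.10.1.1. That software had subtracted the background, and the arrays had not been normalized against each other. A deposited table repeats these intensities within 0.497%. Of 59305 spots, 59.1% (before loading) and 57.7% (24 h) passed the software's flag for signal well above background, and 0 were saturated. Spots that the software marked as outliers, 141 before loading and 138 at 24 h, were not used.

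Log2 intensities were averaged over the spots of a probe, less the 75th percentile of their array, and named without versions through RefSeq transcripts (27235 probes). Levels of genes are those of the brightest probe. The members, roles and lists were chosen with earlier results of these data known. All members are named. Other pathway genes are named if past 2-fold or if highest or lowest in their list. Cell type markers are named if past 2-fold or among the first 3 of their list, and exceptions are stated. The calculation of ratios and fold counts was checked on simulated intensities with known changes. The normexp correction used the median signal of a spot and of its background with an offset of 50. A total of 11 alternatives set beforehand and 2 chosen after seeing the data were run with Python 3.11.15, statsmodels 0.14.6, R 4.3.3 and limma 3.58.1. With 1 array per time point, the number of arrays limits the precision.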

Additional observations from a re-analysis of the deposited data

How the results depend on the processing

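Over scaling by array medians or spike-ins, quantile or loess normalization, normexp correction, the deposited table, the mean over probes, other filters on detection, bright genes only, leaving out disturbed areas and counting the interferon-induced signalling genes as induced, the median ranged from 0.40 to 0.70 for induced genes and from 0.13 to 0.28 for sensor and signalling genes. Their difference stayed above 0, between 0.23 and 0.47. Of 5 members past 2-fold, 1 was counted with normexp correction, 2 among bright genes only (mean level above the 75th percentile) and 0 with an allowance of 2 within-array errors. Among bright genes 15 of 15 members had a log2 ratio above 0, a filter that by construction leaves fewer genes. The median over all genes that pass this filter was -0.0035. Of the genes above the 75th percentile on both arrays, a slightly different set, 49.3% had a log2 ratio above 0. Shares of all genes past 2-fold are not given for each setting, so these counts have no background beside them. Normexp moved 7 of 32 members by more than their error or inside 2-fold. Its offset of 50 is added on both arrays, which by construction draws the log2 ratios of dim probes towards 0. How much of each move came from the offset was not tested. Oas1a (0.05) changed sign with the mean over probes and Ifnar1 (-0.20) without disturbed areas, both through another probe. The settings with spike-in scaling and without disturbed areas were added with the data already seen. Intensities under about 17.3 before loading or 17.8 at 24 h were not well above background. No paired analysis was possible because each group holds a single array.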
